A study of Ovis aries with 16 samples.

Results

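The miRNAs described here are oar-miR-23a, oar-miR-23b and oar-miR-27a, which were 3 of the 271 miRNAs and of the 5267 small RNAs listed for the ovine testis. They were chosen by name, as the listed miRNAs of the miR-23 and miR-27 families, with their diet differences already known. The tests below are therefore no independent evidence of a diet effect on them. A pair of predicted miRNAs was set beside them as companions. The authors paired candidate-miR-163 with the homologue miR-24-3p and candidate-miR-179 with the homologue miR-27b, and the numbers in these names are those given by the authors. The names oar-miR-24 and oar-miR-27b stood on 0 of the rows used, and these miRNAs were not analysed here under those names.

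Small RNAs were sequenced from testis tissue of 16 Merino males, housed in individual pens, with 1 library per male. The 8 well-fed males were given feed set for a gain of 10% of body mass by day 65, and the 8 underfed males were given feed set for a loss of 10% by the same day. Whole testis was used, so fewer cells of a type and less RNA per cell cannot be told apart. Expression was given as CPM, reads per 1000000 miRNA reads of the library, and the number of reads behind each value was recovered from the value of 1 read.

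In mammals, the hairpins of miR-23, miR-27 and miR-24 lie together in a pair of paralogous clusters, each made as a common primary transcript and cut into separate mature miRNAs. The mature forms miR-23a and miR-23b are nearly the same in sequence and share a seed, the part of a miRNA that pairs with its target mRNAs. The same is true of miR-27a and miR-27b. The miR-24 made by both clusters is the same molecule. Members of these clusters are known for roles in muscle, blood vessels, fat cells, cell proliferation and apoptosis. In the current RefSeq gene list for sheep, MIR23A lies next to MIR27A, and MIR23B lies on another chromosome beside AOPEP, an aminopeptidase gene. That list is on another assembly than the one used by the authors, so no positions are given.

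All 16 libraries contained all 3 miRNAs. The libraries held between 17163 and 1058985 miRNA reads, and 3 of them (well-fed 5, underfed 6 and underfed 8) held fewer than 100000. A count of 3 reads, taken as the floor, stood for between 0.000283% and 0.0175% of the miRNA reads. The 3 miRNAs were above this floor in every library, and the lowest count was 20 reads of oar-miR-23b in well-fed 5. The lowest counts of oar-miR-23a and oar-miR-27a were 21 and 126 reads. Intervals and floors cover counting error only, since reads copied by PCR are not independent molecules.

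Reads of the near-identical miRNAs were linked in the deposited values. In every library, the low piRNA values were whole numbers of reads, while the low miRNA values were whole in 93.7% to 99.0% of cases and otherwise ended in 0.5. The miRNAs oar-miR-23a and oar-miR-23b both ended in 0.5 in 7 libraries and were both whole in the other 9, and no library had 0.5 in only 1 of them. The same held for oar-miR-27a and candidate-miR-179, with 0.5 in both in 11 libraries and in neither in 5. Across families, oar-miR-23a and oar-miR-27a differed in this respect in 10 of the 16 libraries. Over all libraries, 63 of the 271 miRNAs (23.2%) had a value ending in 0.5 at least once, and candidate-miR-163 never had one. The set of libraries with 0.5 reads in oar-miR-23a was shared with oar-miR-23b and with no other miRNA, and that of oar-miR-27a with candidate-miR-179 and with no other. How the authors divided reads between such rows is not given in the sources used here, so the levels of each pair are uncertain beyond their counting error. The study's cluster list also gives the precursors of oar-miR-23a and oar-miR-23b one and the same position.

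**Figure D1:**
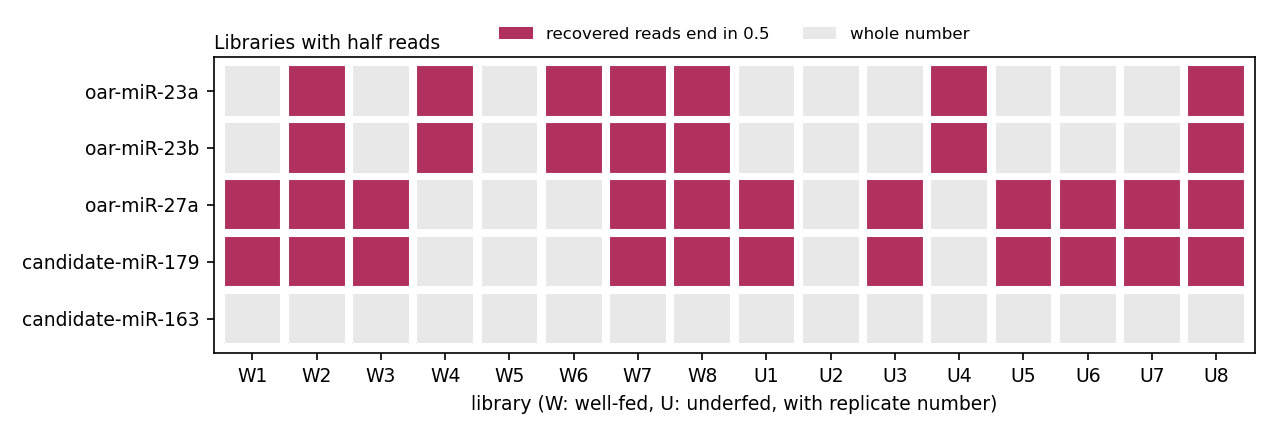
The 16 libraries are on the horizontal axis (W, well-fed; U, underfed) and the 5 miRNAs on the vertical axis, with a dark square where the recovered read number ends in 0.5. The rows of oar-miR-23a and oar-miR-23b are alike in all 16 libraries, as are those of oar-miR-27a and candidate-miR-179.

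The miRNA oar-miR-27a was the most abundant of the 3 in every library. In well-fed males it ranged from 5935 to 14095 CPM with a median of 8989, and in underfed males from 4393 to 14996 CPM with a median of 7219. Its rank among the 271 miRNAs lay between 16 and 32. The diets overlapped widely. The highest value of all belonged to an underfed male, underfed 1, and the other 7 underfed males reached at most 9156 CPM. The well-fed group averaged 9262 ± 2671 CPM (SD, n = 8) against 8050 ± 3155 CPM (SD, n = 8) for the underfed group. FC, defined as mean CPM of underfed over mean CPM of well-fed males, was 0.869.

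Expression of oar-miR-23a was lower and more even. It lay between 808.8 and 1457 CPM in well-fed males (median 1085) and between 755.5 and 1401 CPM in underfed males (median 1047), ranking from 45 to 70. The well-fed range included nearly the whole underfed range, with 1 underfed male, underfed 6, below it. The means were 1115 ± 254.3 CPM (SD, n = 8) and 1069 ± 206.9 CPM (SD, n = 8), and the FC was 0.959. Both the highest well-fed value and the lowest underfed value came from libraries with fewer than 100000 miRNA reads, well-fed 5 with 25 reads and underfed 6 with 21.

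Expression of oar-miR-23b was at about the same level. Its CPM ran from 716.1 through a median of 1092 to 1231 in well-fed males, and from 1069 through 1202 to 1656 in underfed males, with ranks from 45 to 78. The upper part of the well-fed range overlapped the lower part of the underfed range, and 0 underfed males fell below the well-fed minimum. The well-fed group averaged 1037 ± 178.4 CPM (SD, n = 8) against 1275 ± 207.7 CPM (SD, n = 8) for the underfed group, an FC of 1.23.

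The order of levels was the same for the larger steps in all libraries. The miRNA oar-miR-27a was above both miR-23 miRNAs in 16 of 16 libraries, and candidate-miR-179 was above oar-miR-27a in 16 of 16. The order within the miR-23 pair was not fixed. In well-fed males oar-miR-23b was above oar-miR-23a in 2 of 8 libraries, and in underfed males in 6 of 8, and within each diet the means of the pair differed by less than the SD of either miRNA.

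The companions covered the same ranges of abundance. The miR-27b homologue candidate-miR-179 averaged 13963 ± 2621 CPM (SD, n = 8) in the well-fed group, from 11266 to 19209, against 12010 ± 3238 CPM (SD, n = 8), from 7409 to 16364, in the underfed group. The miR-24-3p homologue candidate-miR-163 was near the miR-23 pair, with 1096 ± 324.1 CPM (SD, n = 8) for the well-fed group against 1311 ± 326.3 CPM (SD, n = 8) for the underfed group. Its ranges, 524.4 to 1649 and 755.5 to 1778 CPM, overlapped between diets.

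**Figure D2:**
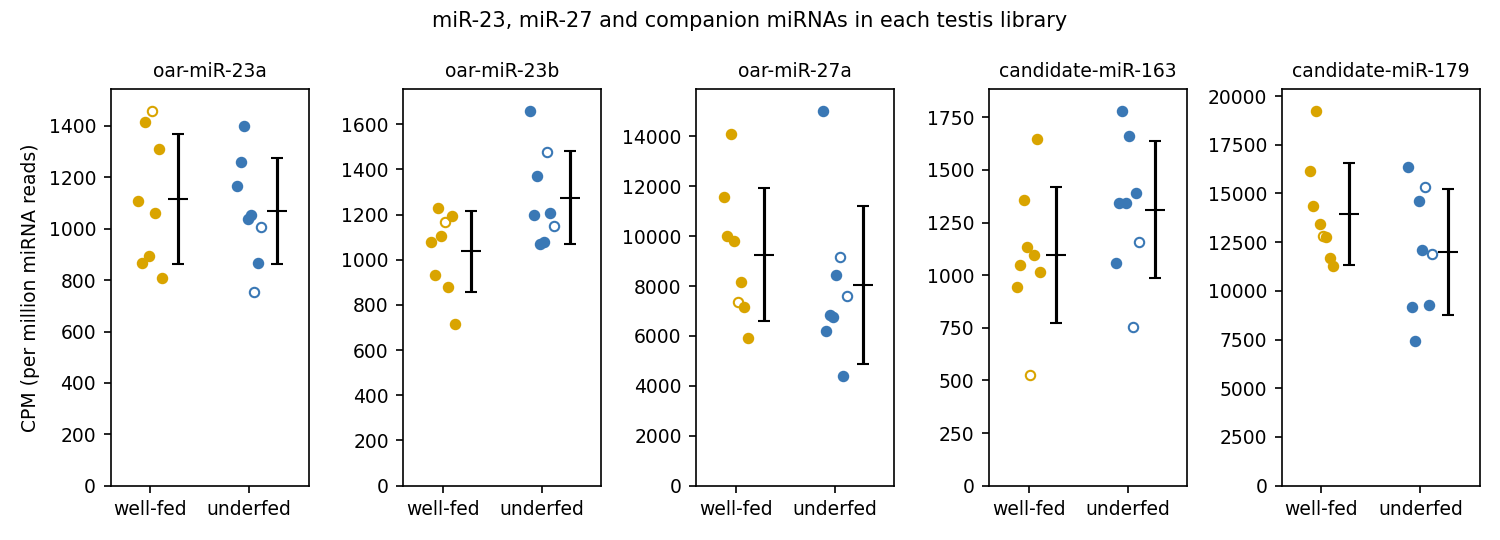
Each point is 1 library, with CPM on a linear axis from 0 that has its own range in each panel; open points are the 3 libraries with fewer than 100000 miRNA reads, and bars show the mean ± SD of 8 males. For oar-miR-27a, underfed 1 at 14996 CPM stands above the other underfed males.

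The diets were compared with limma over the 244 miRNAs that passed the filter on low CPM, after scaling between libraries by TMM, the trimmed mean of the ratios between libraries. The scaling factors lay between 1.08 and 1.39 in well-fed males and between 0.698 and 1.26 in underfed males. Of the 244 miRNAs, 8 (3.28%) were DE, with a Benjamini-Hochberg FDR under 0.05 and an FC under 0.67 or above 1.5. The 3 miRNAs all passed the low CPM filter and 0 of the 3 were DE by limma, or by voom on the recovered reads, with an unadjusted limma p under 0.05 for 2 of them. This count rested on FC from unscaled CPM. When FC was also computed on the TMM scale, an alternative added after seeing the data, 15 of the 244 miRNAs (6.15%) were DE by limma, and oar-miR-23b was among them with an FC of 1.71. The FC on that scale was 1.36 for oar-miR-23a and 1.17 for oar-miR-27a. By FDR alone, 9 miRNAs (3.69%) had greater expression in underfed males, and 1 of the 3, oar-miR-23b, was among them. An unadjusted p under 0.05 with greater expression in underfed males was found for 35 miRNAs (14.3%), including oar-miR-23a, oar-miR-23b and candidate-miR-163. The study's cluster list gives mir-23b an FC above 1.5 with an FDR under 0.05, so the count of 0 of 3 departs from it. For mir-23a that list also gives an FC above 1.5, but with an FDR above 0.05. Both are above the FC from unscaled CPM found here. On the TMM scale, the FC of oar-miR-23b was also above 1.5, and that of oar-miR-23a was not.

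On the TMM scale, oar-miR-23b lay between 569.6 and 1100 CPM in well-fed males and between 1143 and 1894 CPM in underfed males. All 8 underfed males were above the highest well-fed male, which held for 3 of the 244 miRNAs (1.23%). The log2 difference, underfed minus well-fed, was 0.78 (SE 0.17), and the adjusted p by limma was 0.00922, rank 4 of 244 by p. Leaving out each male in turn gave log2 differences from 0.67 to 0.83 and an adjusted p by limma below 0.05 in 16 of 16 fits. Without the 3 libraries of fewer than 100000 miRNA reads the log2 difference was 0.80 with an adjusted p by limma of 0.00673, and that of oar-miR-23a was 0.59 with 0.0502. Without TMM the log2 difference of oar-miR-23b was 0.30 and the adjusted p by limma was 0.219, so the call rested on the scaling.

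The other miRNAs did not pass. For oar-miR-23a the scaled values were 643.3 to 1208 CPM in well-fed and 926.0 to 1805 CPM in underfed males, with 5 of 8 underfed males above the highest well-fed male. Its log2 difference was 0.42 (SE 0.19) with an adjusted p by limma of 0.163, and without TMM it was -0.05. For oar-miR-27a the scaled values were 4721 to 10160 and 6249 to 11902 CPM, with 2 underfed males above the well-fed range. Its log2 difference was 0.24 (SE 0.18) with an adjusted p by limma of 0.394, and without TMM it turned to -0.23.

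For candidate-miR-163 the log2 difference was 0.75 (SE 0.25), with an adjusted p by limma of 0.0619. For candidate-miR-179 it was 0.23 (SE 0.16), with an adjusted p by limma of 0.360, and it was -0.25 without TMM. Of the companions, candidate-miR-163 thus had a log2 difference near that of oar-miR-23b, and candidate-miR-179 one near that of oar-miR-27a. The reads of candidate-miR-179 and oar-miR-27a were linked, so the likeness of these differences is not independent of how reads were divided.

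The scaling moved all miRNAs together. The median log2 difference of the 244 miRNAs was -0.08 with TMM, -0.51 without it, and 0.82 when miRNAs and piRNAs were scaled jointly from the reads of both classes. Relative to that median, oar-miR-23b was higher by 0.85, 0.81 and 0.92 under these 3 scalings, oar-miR-23a by 0.50, 0.46 and 0.56, and oar-miR-27a by 0.32, 0.27 and 0.38. Each scaling divides all miRNAs of a library by the same factor. The order of the 3 miRNAs and their distance from the median could therefore hardly change, and their likeness between scalings is no separate evidence. Their distance from 0 changed with the scaling. Under joint scaling the log2 differences were 1.38 for oar-miR-23a, 1.73 for oar-miR-23b and 1.20 for oar-miR-27a, with adjusted p-values by limma of 0.00584, 0.000854 and 0.00383. FC was here taken from reads over the total of both classes, without the joint TMM factors. It was 1.61 for oar-miR-23a, 2.01 for oar-miR-23b and 1.38 for oar-miR-27a. By this FC and the FDR, oar-miR-23a and oar-miR-23b were DE, as were 60 of the 244 miRNAs (24.6%). By FDR alone, 85 of the 244 miRNAs (34.8%) passed under joint scaling, all with greater expression in underfed males, and the 3 miRNAs were among them.

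**Figure D3:**
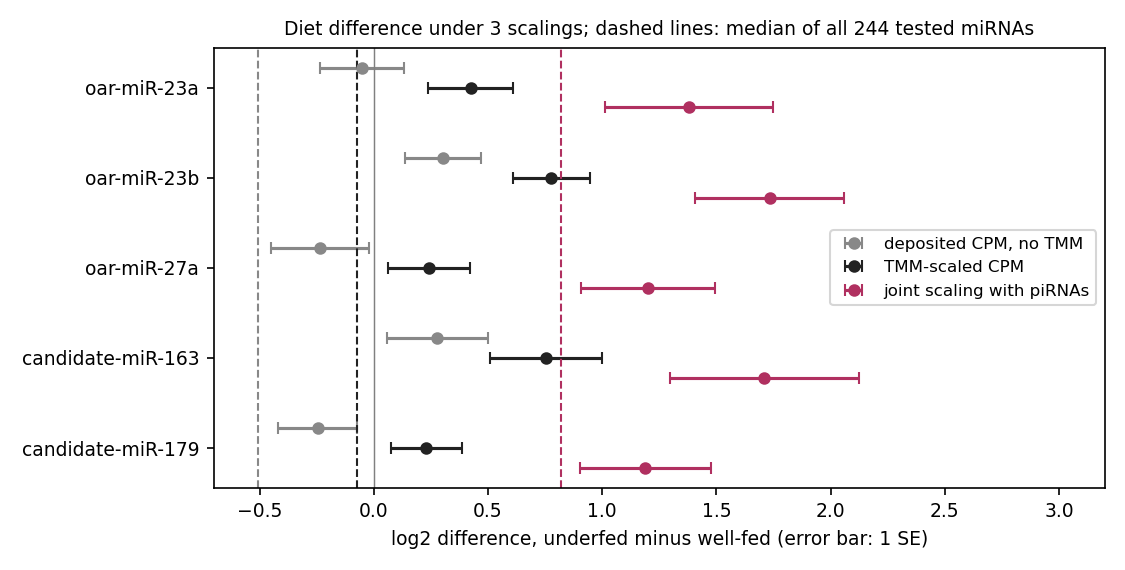
The horizontal axis is the log2 difference, underfed minus well-fed, from limma, with bars of 1 SE, for 5 miRNAs under 3 scalings; dashed lines mark the median of all 244 miRNAs under each. Each miRNA lies to the right of the median of its scaling, and oar-miR-23a, oar-miR-27a and candidate-miR-179 change sign without TMM.

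Markers of the cell types of the testis were set beside oar-miR-23b in the same fit. The summed CPM without TMM of the 3 germ cell miRNAs (homologues of miR-34b, miR-34c and miR-449a, all listed in every library) was 47497 to 71079 in well-fed males and 10978 to 58155 in underfed males. On the TMM scale this sum was 34238 to 64495 (median 54437) in well-fed and 15733 to 57906 (median 27000) in underfed males. With TMM, all 3 miRNAs had negative log2 differences, and 2 of the 3 an adjusted p by limma below 0.05, as had 15 of all 244 miRNAs. Under joint scaling all 3 differences were positive, as were 207 of the 244. The underfed males with the highest germ cell sums without TMM were underfed 8 with 58155 CPM and underfed 1 with 44629 CPM. For the smooth muscle list, oar-miR-143 had a log2 difference of 0.52 (SE 0.20) and candidate-miR-90, the miR-145 homologue, one of 0.62 (SE 0.27). The summed TMM-scaled CPM of these 2 miRNAs was 121568 to 195658 (median 151053) in well-fed and 110054 to 274708 (median 240400) in underfed males, and without TMM it was 153985 to 210989 and 138660 to 215633. Over the smooth muscle, white blood cell and epithelial lists, 10 of 10 miRNAs had a positive log2 difference with TMM and under joint scaling, and 6 of 10 without TMM, where the 4 white blood cell miRNAs were negative. Of all 244 miRNAs, 115 were positive with TMM, 207 under joint scaling and 63 without TMM. With TMM, 0 of the 10 had an adjusted p by limma below 0.05, against 15 of the 244 miRNAs (63 with an unadjusted p under 0.05). Under joint scaling 6 of the 10 had, against 85 of the 244 (34.8%). The scaled sums of the white blood cell list (4 listed) were 1542 to 3149 CPM in well-fed and 1479 to 3538 CPM in underfed males, and those of the epithelial list (4 listed) 23.8 to 144.5 and 33.2 to 230.9 CPM. The red blood cell miRNA, candidate-miR-132, ran from 2166 to 6227 CPM in well-fed and from 1371 to 12157 CPM in underfed males. It was not among the 10 miRNAs. Its log2 difference was -0.20 (SE 0.36) with TMM, also negative without TMM, and positive under joint scaling. The part of these cell types in the values of the miR-23 and miR-27 miRNAs was not tested.

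Ratios between miRNAs of the same library do not depend on the scaling, so the diets were also compared on the 10 ratios among the 5 miRNAs. The log2 ratio of oar-miR-23b to oar-miR-23a averaged -0.09 ± 0.21 (SD, n = 8) for the well-fed group against 0.26 ± 0.36 (SD, n = 8) for the underfed group. The difference was 0.35 (SE 0.15, 95% interval 0.05 to 0.67), with p = 0.0253 and 0.0844 after adjustment over the 10 ratios (exact permutation test, two-sided). As a share of the reads of the pair, oar-miR-23b made up 48.4% ± 3.63 (SD, n = 8) for the well-fed group against 54.4% ± 6.06 (SD, n = 8) for the underfed group. The shares ran from 44.4% to 55.3% in well-fed and from 48.7% to 66.1% in underfed males. The highest share, in underfed 6, rested on 62 reads and had a Wilson 95% interval of 53.7% to 76.7%. The difference did not pass after adjustment, and it is not independent of how the linked reads of the pair were divided. Without the 3 shallow libraries it fell to 0.22 with an adjusted p of 0.205, and without well-fed 4 it was 0.41 with an adjusted p of 0.0396 (exact permutation test, two-sided). With the reads of each diet summed it was 0.17.

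MIR27A and MIR23A are neighbours in the genome. The log2 ratio of oar-miR-27a to oar-miR-23a averaged 3.03 ± 0.46 (SD, n = 8) for the well-fed group against 2.85 ± 0.56 (SD, n = 8) for the underfed group. The difference was -0.18 (95% interval -0.72 to 0.36), with p = 0.482 and 0.602 after adjustment (exact permutation test, two-sided). The interval left room for a change in either direction. Without the 3 shallow libraries the difference was -0.42 with an adjusted p of 0.205 (exact permutation test, two-sided), with the reads of each diet summed it was -0.57, and with 1 male left out it ran from -0.30 to -0.10 (without underfed 1 and underfed 3).

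The genes of oar-miR-27a and oar-miR-23b lie on different chromosomes. The log2 ratio of oar-miR-27a to oar-miR-23b averaged 3.13 ± 0.35 (SD, n = 8) for the well-fed group against 2.59 ± 0.41 (SD, n = 8) for the underfed group, and 3 underfed males were below the lowest well-fed male. The difference of -0.54 (SE 0.19, 95% interval -0.94 to -0.14) had p = 0.0151 and 0.0754 after adjustment (exact permutation test, two-sided). Without well-fed 5, well-fed 7 or underfed 1 in turn the adjusted p was 0.0412, 0.0326 or 0.0389 (exact permutation test, two-sided), while it missed 0.05 with all 16 males. It also missed 0.05 in the other fits that left out 1 male, and was highest, 0.144, without underfed 7 (exact permutation test, two-sided). Without the 3 shallow libraries it was 0.0816 (exact permutation test, two-sided).

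The log2 ratio of candidate-miR-179 to oar-miR-27a averaged 0.62 ± 0.18 (SD, n = 8) for the well-fed group against 0.61 ± 0.37 (SD, n = 8) for the underfed group. The difference was -0.01 (95% interval -0.31 to 0.29), with p = 0.941 (exact permutation test, two-sided). Against oar-miR-23b, candidate-miR-179 had a difference of -0.55 (95% interval -0.91 to -0.19) with p = 0.00559 and 0.0559 after adjustment (exact permutation test, two-sided). The adjusted p of this ratio was below 0.05 in 5 of the 16 fits that left out 1 male (without well-fed 4, 5 or 7, or underfed 1 or 4). It was as low as 0.0233 without underfed 4 (exact permutation test, two-sided).

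The difference in the log2 ratio of candidate-miR-163 to oar-miR-23b averaged -0.02 (95% interval -0.58 to 0.56), and to oar-miR-23a it was 0.33 (95% interval -0.11 to 0.83). The difference to oar-miR-23a was 0.13 without well-fed 5, which had 9 reads of candidate-miR-163, 0.19 without the 3 shallow libraries and 0.20 with reads summed. The difference against oar-miR-27a was 0.51 (95% interval -0.21 to 1.23). The adjusted p-values of these 3 ratios were 0.941, 0.308 and 0.296 (exact permutation test, two-sided). The other 2 of the 10 ratios, of candidate-miR-179 to oar-miR-23a and to candidate-miR-163, differed by -0.19 and -0.52 with adjusted p-values of 0.602 and 0.296 (exact permutation test, two-sided). The first of these was -0.43 without the 3 shallow libraries and -0.50 with reads summed.

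**Figure D4:**
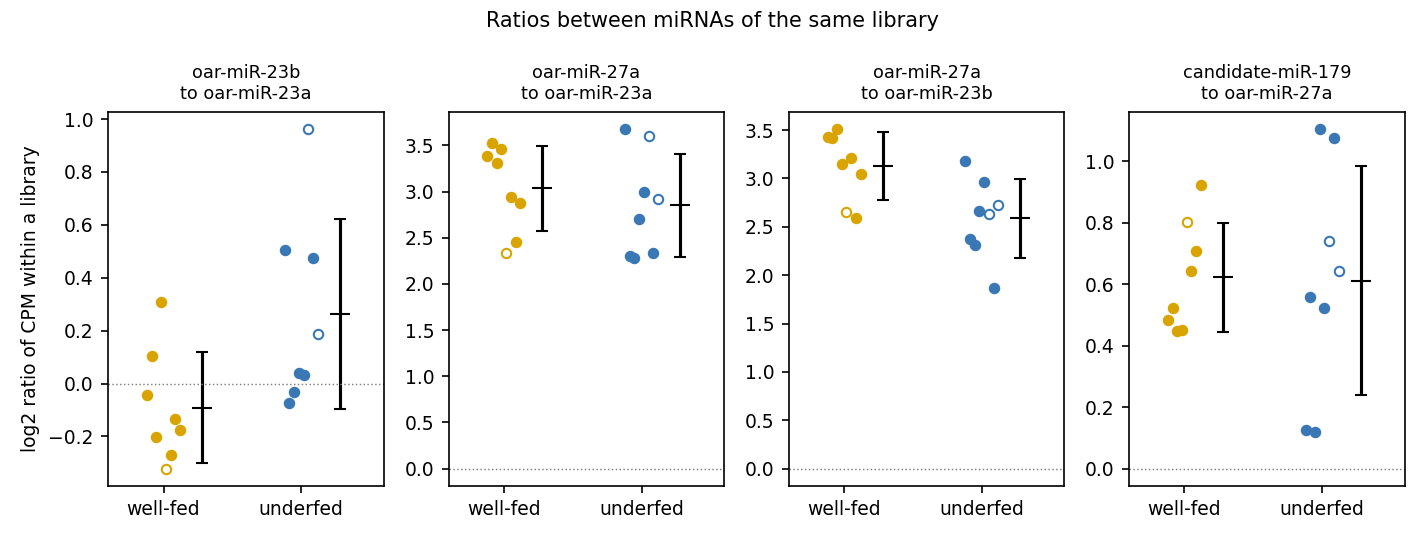
Each point is the log2 ratio of a pair of miRNAs in 1 library; open points are the 3 libraries with fewer than 100000 miRNA reads, bars show the mean ± SD of 8 males, and a dotted line marks equal levels. The ratio of oar-miR-23b to oar-miR-23a is above 0 in 2 of 8 well-fed and 6 of 8 underfed males, and that of oar-miR-27a to oar-miR-23b overlaps between diets.

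Since the near-identical miRNAs were linked, their summed values were also described, a choice made after seeing the data and given with no test. The sum of oar-miR-23a and oar-miR-23b was 2153 ± 409.4 CPM (SD, n = 8) for the well-fed group against 2344 ± 303.3 CPM (SD, n = 8) for the underfed group, with an FC of 1.09. The log2 difference of this sum was 0.55 (SE 0.16) with TMM and 0.14 (SE 0.16) without it. The sum of oar-miR-27a and candidate-miR-179 had an FC of 0.864, with log2 differences of 0.18 (SE 0.16) with TMM and -0.23 (SE 0.18) without it.

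The miRNAs with profiles most like each of the 3 were found from the SD of the log2 ratio over the 13 libraries with more than 100000 miRNA reads. This is a description over libraries of both diets, in which 243 other miRNAs were ranked. The profile of oar-miR-23a was nearest to candidate-miR-134, a homologue of miR-342 that was also listed among the white blood cell miRNAs, with an SD of 0.20. Next came candidate-miR-177, a homologue of miR-361-5p, and oar-miR-152, both with an SD of 0.22. Its near-identical partner oar-miR-23b was at rank 5 with an SD of 0.25, and its cluster neighbour oar-miR-27a was at rank 50.

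For oar-miR-23b the nearest was candidate-miR-181, a homologue of miR-204, with an SD of 0.22. It was followed by oar-miR-23a with 0.25 and oar-miR-99a with 0.26, while oar-miR-27a was at rank 44. For oar-miR-27a the nearest were oar-miR-133, a muscle miRNA, and candidate-miR-6, a homologue of miR-100, both with an SD of 0.28. Next was candidate-miR-69, a homologue of miR-2483-5p, with 0.29. The miR-27b homologue candidate-miR-179 was at rank 5, and oar-miR-23a and oar-miR-23b were at ranks 38 and 39. The median SD over all ranked miRNAs was 0.77 for oar-miR-23a, 0.81 for oar-miR-23b and 0.75 for oar-miR-27a. Within each family the near-identical partner had a smaller SD than the miRNAs of the other family, but the reads of such partners were linked in the deposited values, so their likeness is not independent of how reads were divided.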

How the data were processed

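Per the labels, RNA was extracted from testis with Trizol and small RNA libraries were built with an Illumina kit; CASAVA 1.8 and Oar_v3.1 are named in the submitters' processing notes. The authors counted reads of 18 to 25 nt against known (miRBase release 20) and predicted precursors and tested diets with edgeR. The deposited signal values are the authors' CPM, scaled to the class total, so that the miRNAs and the piRNAs of a column each sum to about 1000000. The lowest values gave the value of 1 read, and with it the reads behind each value, called whole within a tolerance of 0.02 reads.

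Groups came from the diet labels. A miRNA entered the test when 8 or more of the 16 libraries had over 5 CPM. The test used limma 3.58.1 (R 4.3.3) on log2(TMM-scaled CPM + 1), two-sided, with the empirical Bayes trend and Benjamini-Hochberg adjustment over all of them. TMM trimmed 30% of log ratios and 5% of abundances. Log2 differences are on this scale, which understates changes of low values. Ratios were compared on log2((CPM + 1)/(CPM + 1)) by exact permutation over all 12870 arrangements (Python 3.11.15, numpy 2.4.6), and their 95% intervals came from inverting that test on a grid of shifts. Wilson intervals used SciPy 1.17.1. The scripts were tested on simulated data.

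The members and lists were chosen with earlier results of these data known. The miRNAs named are the 3 members, the predicted homologues of miR-24-3p and miR-27b, the marker lists, and the 3 miRNAs with the smallest SD of the log2 ratio to each member. Predicted miRNAs carry the prefix candidate-miR. Alternatives covered scaling, filter, pseudocount, robust fit, replicate block, depth, voom and leaving out each male. The replicates are separate males.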

Additional observations from a re-analysis of the deposited data

Results flagged for a closer look

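The CPM of oar-miR-27a in underfed 1, 14996, stood far above those of the other 7 underfed males. Its gap to the nearest value was 0.551 of the group's range, above the Dixon 95% critical value for 8 samples. It was the only value marked among 18 group values examined, where chance marks about 1 in 20. The gap was one of unscaled CPM. On the TMM scale underfed 1 had 11902 CPM and underfed 6 had 11754. The TMM-scaled log2 difference of oar-miR-27a ranged from 0.14 to 0.32 when males were left out in turn.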

How the results depend on the processing

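The count of DE miRNAs by limma, 8 with TMM, was 36 without TMM, 60 with joint scaling, 18 with the miRNA total as a covariate, 25 without the 3 libraries under 100000 miRNA reads and 24 with voom on recovered reads. When FC was also computed on the TMM scale, an alternative added after seeing the data, it was 15. The count of 60 rested on FC without the joint TMM factors. Leaving out 1 male gave counts from 0 to 22. The count was 0 without well-fed 2 (57 miRNAs with an unadjusted p under 0.05) and without well-fed 8 (50 miRNAs), and 22 without underfed 1. The cause was not tested.

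Log2 differences reversed without TMM for oar-miR-23a (-0.052), oar-miR-27a (-0.23) and candidate-miR-179 (-0.25), and oar-miR-23b no longer passed (0.30). With joint scaling oar-miR-23a (1.38) and oar-miR-27a (1.20) had an FDR under 0.05, as had 85 of the 244 miRNAs (34.8%). Under the other alternatives that kept all males, oar-miR-23b passed and oar-miR-23a and oar-miR-27a did not. With 1 male left out, oar-miR-23a ranged from 0.27 to 0.48. The adjusted p of candidate-miR-163 by limma fell below 0.05 in 3 of 16 such fits (without well-fed 7, underfed 1 or underfed 8) and under 4 of the other 10 alternatives (joint scaling, total as a covariate, deeper libraries, voom).

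The ratio differences with 1 male left out ranged from 0.25 to 0.41 for oar-miR-23b to oar-miR-23a and from -0.62 to -0.43 for oar-miR-27a to oar-miR-23b. Those of candidate-miR-179 to oar-miR-27a (-0.082 to 0.059) and of candidate-miR-163 to oar-miR-23b (-0.19 to 0.12) lay on both sides of 0, and with reads summed over the males of a diet they were 0.065 and 0.027. Of the 3 most alike miRNAs, oar-miR-23a, oar-miR-23b and oar-miR-27a shared 2, 1 and 0 in all 16 libraries, and 1, 1 and 1 with the median absolute deviation.

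The replicate numbers were shared between diets. Correlations between the deviations of same-numbered males ran from -0.18 to 0.28, with 3 of 8 over 0.1. Their mean was 0.047, against 0.0058 for males of unlike number. Of the 16 males, 5 correlated best with their own number. Whether this exceeds chance was not tested. The replicate block gave 7 DE miRNAs and an adjusted p by limma of 0.0145 for oar-miR-23b, and it changed no call on the 5 miRNAs. Tests with edgeR and DESeq2 on recovered reads were not run, since too many miRNA values ended in 0.5 reads.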
